A study of Mus musculus with 32 samples.

Results

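Dendritic spine scaffold genes were followed through ribosome-bound and whole-tissue RNA of mouse motor cortex. The 10 genes were taken by symbol from the 24091 genes of the count tables. They are the neurabin gene Ppp1r9a, the spinophilin gene Ppp1r9b, Shank1, Shank2, Shank3, Homer1, the PSD-95 gene Dlg4, and the actin-linked genes Wipf3, Mical3 and Sorbs2. All 10 passed the low-count filter in each of the 10 comparisons made. They were chosen by their symbols with measured expression differences of these data already known, and the contrast behind that choice is not recorded. Fold changes and adjusted p-values of these genes are therefore given as a description, not as support for a claim about the set.

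The study profiled cortical layer 5b neurons with bacTRAP mice, whose transgene expresses the EGFP-tagged ribosomal protein L10a. An immunoprecipitate of the tag (TRAP IP) holds ribosome-bound RNA of the tagged cells, and the input is RNA of the whole tissue homogenate. Per the labels, Gprin3-bacTRAP ES152 tags lower and Colgalt2-bacTRAP DU9 upper layer 5b pyramidal cells. All animals were adults of 8 to 17 weeks. The line crossed to the mutant was compared in SOD1*G93A carriers (genotype SOD+) and wild-type littermates (SOD-, called WT). SOD1*G93A mice carry a mutant human superoxide dismutase and are a model of amyotrophic lateral sclerosis. Gprin3 IPs numbered 3 from carriers and 2 from WT mice. Colgalt2 IPs numbered 4 from carriers and 3 from WT mice. Inputs of primary motor cortex (M1), all of the Gprin3 cross, numbered 6 from carriers and 5 from WT mice. The baseline groups, wild type and not from the SOD1*G93A cross, held 2 IPs and 3 inputs of the Gprin3 line, and 2 IPs and 2 inputs of the Colgalt2 line. All 32 libraries carry a bacTRAP transgene. The 7 Colgalt2 IPs of the SOD1*G93A cross came from whole cortex per their tissue label, although their source names read M1. The labels do not say whether animals were pooled or whether replicates were separate animals, so p-values measure the spread between these libraries.

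Dendritic spines are the small protrusions that receive most excitatory synapses of cortical pyramidal neurons. Their postsynaptic density holds glutamate receptors through PSD-95, which connects through SAPAP proteins to the Shank family. Shank proteins in turn bind Homer, and Homer reaches group I metabotropic glutamate receptors. Neurabin and spinophilin bind both actin filaments and protein phosphatase 1. Spine shape rests on the actin cytoskeleton, which the WIP-family protein of Wipf3, the MICAL oxidoreductase family of Mical3 and the SH3 adaptor of Sorbs2 are known to bind or regulate.

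Some of the annotated starts are shown because the genes below fall into those that moved together across IPs, such as Ppp1r9a and Shank3, and those that did not, such as Homer1. RefSeq (GRCm38.p6) gave windows of 250 bases before the start for 8 of the 10 genes, some with several starts. Shank1 and Shank2 had no entry. The 3 windows printed hold no annotated exon. Capitals mark the GC box (GGGCGG) and the cyclic AMP response element half-site (TGACG), on either strand. The windows are Ppp1r9a at chr6:4903061-4903310, Shank3 at chr15:89499358-89499607 and Homer1 at chr13:93303507-93303756, all on the plus strand.
Ppp1r9a: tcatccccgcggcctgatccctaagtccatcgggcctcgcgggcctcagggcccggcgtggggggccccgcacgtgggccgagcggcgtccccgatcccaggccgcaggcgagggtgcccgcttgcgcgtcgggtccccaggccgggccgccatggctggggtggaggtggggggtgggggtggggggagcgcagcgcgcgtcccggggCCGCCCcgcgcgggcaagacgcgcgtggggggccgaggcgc
Shank3: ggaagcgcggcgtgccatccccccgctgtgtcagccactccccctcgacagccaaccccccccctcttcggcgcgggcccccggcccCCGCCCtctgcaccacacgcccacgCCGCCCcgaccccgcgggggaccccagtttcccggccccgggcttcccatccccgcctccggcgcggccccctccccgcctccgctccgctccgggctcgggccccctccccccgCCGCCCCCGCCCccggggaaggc
Homer1: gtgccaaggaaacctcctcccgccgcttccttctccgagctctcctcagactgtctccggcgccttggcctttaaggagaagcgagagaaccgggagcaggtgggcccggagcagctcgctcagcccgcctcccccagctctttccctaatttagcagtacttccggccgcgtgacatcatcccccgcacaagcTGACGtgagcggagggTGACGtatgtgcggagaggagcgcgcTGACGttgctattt
The Ppp1r9a window was 81.2% G or C with 1 GC box, and the Shank3 window was 82.4% G or C with 4. The Homer1 window was 62.4% G or C, with 3 half-sites and no GC box. Over all 32851 windows of this length, 32.74% held a GC box and 17.77% a half-site. The full element TGACGTCA was in none of the 3 windows and in 1.546% of all. The windows of Ppp1r9b and Sorbs2, genes that moved with Shank3, held no GC box at any listed start. Wipf3, not among the genes that moved together, held 4 GC boxes. Dlg4, also not among them, held 1 at one of its starts. The windows of both carry an annotated exon. A further Homer1 window, with no annotated exon, held no half-site. These letters thus do not separate the genes that moved together from the others. A match describes letters and does not show a bound site.

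Library totals ran from 10863628 to 77220890 counts. Levels are CPM, counts scaled to the library total and not corrected for transcript length. Of the driver genes, Colgalt2 separated the lines, at 118.7 to 130.6 CPM in SOD1*G93A Colgalt2 IPs and 95.3 to 111.3 CPM in WT Colgalt2 IPs, against at most 8.80 CPM in any Gprin3 IP. Baseline Colgalt2 IPs held 79.44 to 97.14 CPM of Colgalt2. The inputs of that line held 52.84 to 56.97 CPM of it, against 3.671 to 4.962 CPM in baseline Gprin3 inputs. Colgalt2 thus marked the line in whole tissue as well. Gprin3 did not separate the WT IPs, at 23.7 to 37.2 CPM in WT Gprin3 IPs and 23.7 to 37.1 CPM in WT Colgalt2 IPs. In carriers it ran from 38.65 to 49.6 CPM in Gprin3 IPs, above the 23.46 to 35.17 CPM of Colgalt2 IPs. Baseline IPs were apart too, at 38.93 to 49.71 CPM for the Gprin3 line and 16.47 to 17.49 CPM for the Colgalt2 line. The 10 markers of layer 5b extratelencephalic neurons summed to between 876.3 and 1631 CPM in IPs, against 385.0 to 469.7 CPM in inputs. Although the Gprin3 line is labelled pyramidal, the 10 interneuron markers also summed higher in Gprin3 IPs. They summed to 1546 to 1981 CPM, against 1063 to 1211 CPM in the inputs of that line. Not all of them were higher. At an edgeR adjusted p under 0.05, 4 were higher and 2 lower in baseline Gprin3 IPs than in inputs. In WT Gprin3 IPs against M1 inputs, 5 interneuron markers were higher and 2 lower. Their part in the results was not tested. Sod1 ran from 690.8 to 732.6 CPM in carriers' Gprin3 IPs, against 319.6 to 322.6 CPM in the WT ones. Baseline Gprin3 IPs, which carry no mutant, held 469.8 to 800.6 CPM of it, so Sod1 does not check that label. In the whole-cortex set, WT Colgalt2 IP 1 had a mean rank correlation of 0.9441 with the other 6 libraries, against 0.964 to 0.969 for those 6. SOD1*G93A Colgalt2 IP 2 shared its high Ppp1r9a and Mical3 values. These 2 libraries were picked out after their values were seen, and results resting on them are given with and without them.

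Per kilobase of the longest annotated transcript, mean levels in the 16 inputs were highest for Homer1, at 73.9 CPM per kb, followed by Ppp1r9a at 59.4, Shank1 at 49.7 and Dlg4 at 45.8 CPM per kb. Wipf3 was at 38.7, Ppp1r9b at 33.5 and Sorbs2 at 31.7 CPM per kb. The lowest were Shank2 at 10.0, Shank3 at 8.59 and Mical3 at 6.16 CPM per kb. Among the Shank genes, Shank1 was thus the most abundant per length in whole motor cortex RNA.

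Each of the 10 genes varied over a wider range in IPs than in inputs. Across 16 inputs Ppp1r9a ran from 469.9 to 693.7 CPM, a 1.476-fold range, whereas across 16 IPs it ran from 157.5 to 2495 CPM, a 15.8-fold range. Shank2 spanned a 16.3-fold range in IPs and a 1.762-fold range in inputs. Mical3 spanned 8.33-fold in IPs and 1.464-fold in inputs. Homer1 had the narrowest range in IPs, 2.515-fold, with 1.594-fold in inputs. The number of tagged cells, the RNA per cell and the recovery of a transcript cannot be told apart in such libraries.

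**Figure D1:**
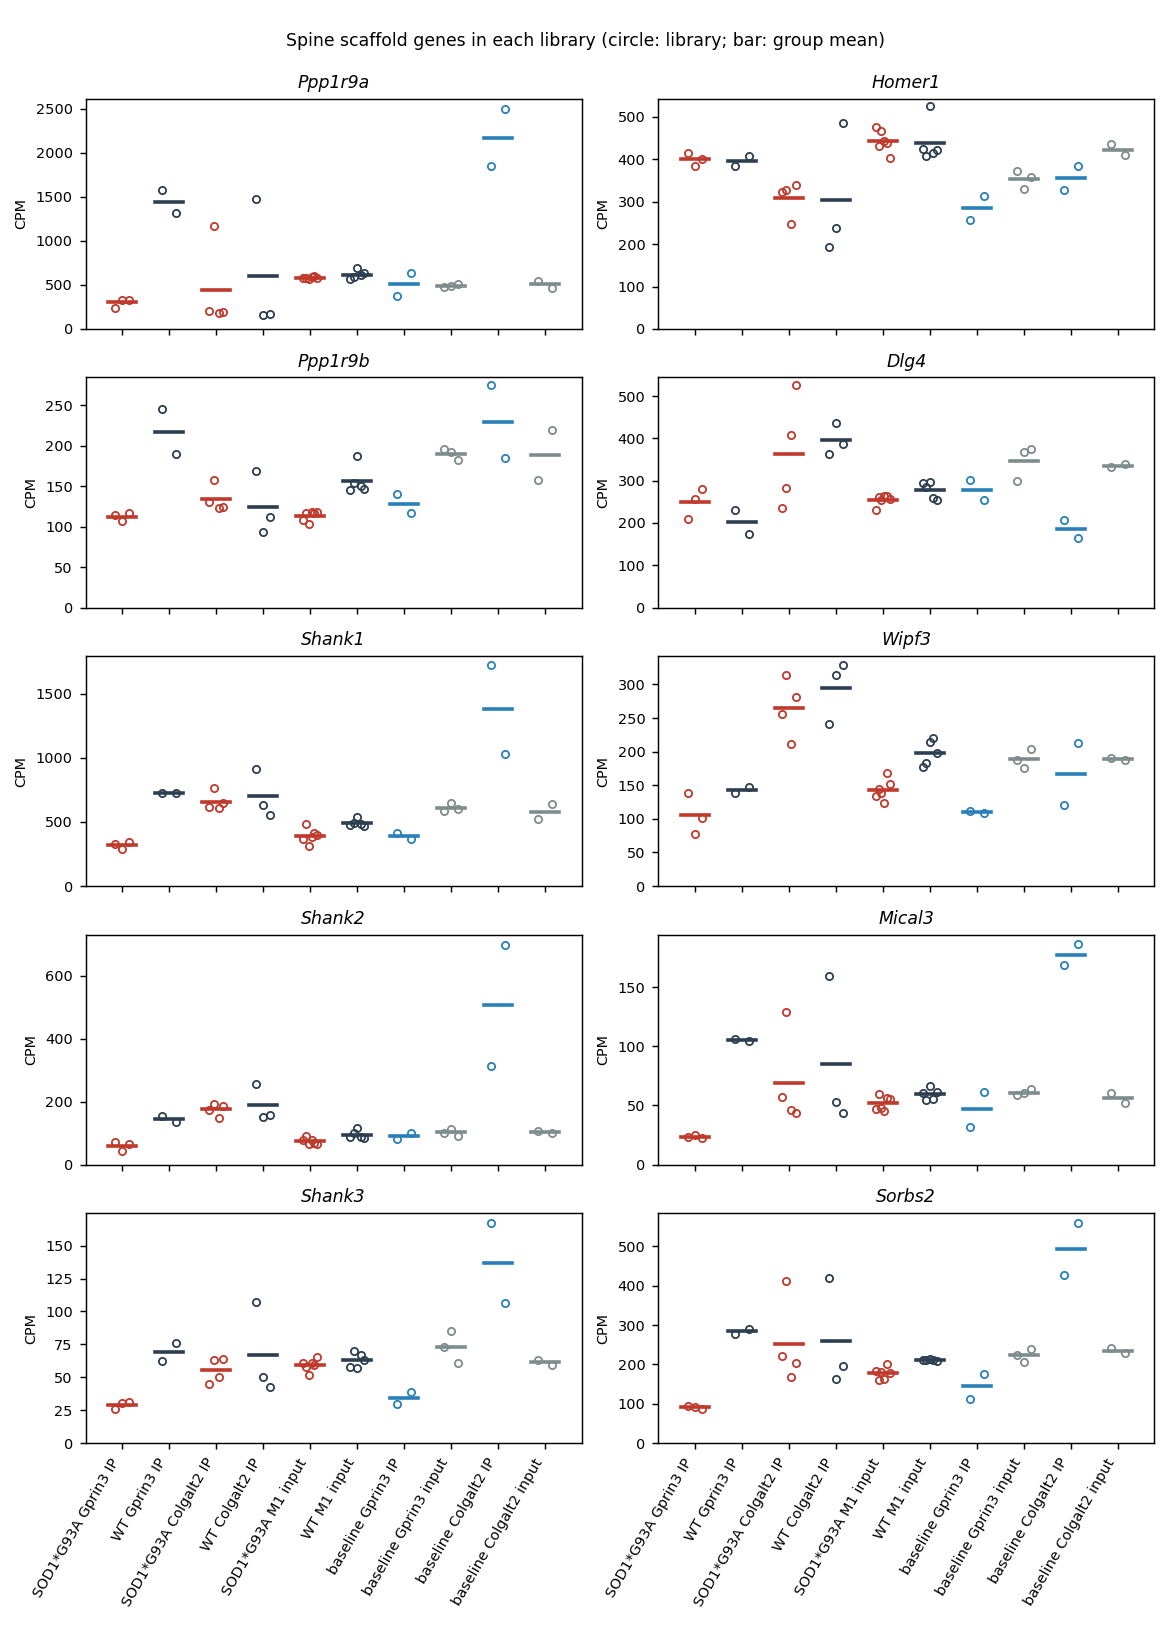
Each panel plots the level of a gene in CPM (vertical axis, from 0) in every library (circles) of the 10 groups along the horizontal axis, with the group mean as a bar. Ppp1r9a sits between 238.2 and 334.0 CPM in the SOD1*G93A Gprin3 libraries and at 1312 and 1576 CPM in the WT ones, while the inputs lie between 469.9 and 693.7 CPM.

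The SOD1*G93A comparison in Gprin3 IPs separated 7 of the 10 genes. Ppp1r9a, Ppp1r9b, Shank1, Shank2, Shank3, Mical3 and Sorbs2 fell in SOD1*G93A IPs, and no SOD1*G93A library overlapped a WT library for any of these 7. Homer1, Dlg4 and Wipf3 did not pass the threshold. The median log2 fold change of the 10 genes was -1.22, against 0.02 over the 13726 genes tested. A call means an adjusted p under 0.05 (edgeR quasi-likelihood, Benjamini-Hochberg over the whole table). In this comparison 8.15% of genes were called, 2.92% higher and 5.22% lower. Libraries of the 2 genotypes did not overlap for 42.6% of genes, 21.9% with SOD1*G93A lower, so a lack of overlap is common in 3 against 2 libraries.

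Ppp1r9a, which encodes neurabin, had 238, 334 and 329 CPM in SOD1*G93A Gprin3 IPs, against 1576 and 1312 CPM in WT Gprin3 IPs. The SOD1*G93A libraries were all low and the WT libraries all high, with a log2 fold change of -2.27 ± 0.14 (SE; edgeR adjusted p = 3.7e-05). Ppp1r9b, which encodes spinophilin, had 114, 107 and 117 CPM in SOD1*G93A IPs, against 245 and 190 CPM in WT IPs. Its drop was smaller, -0.95 ± 0.15 on the log2 scale (edgeR adjusted p = 0.00426). Here spinophilin and neurabin, close relatives with the same kinds of partner, moved the same way by different amounts.

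The Shank genes encode master scaffolds of the postsynaptic density. Shank1 had 328, 286 and 345 CPM in SOD1*G93A Gprin3 IPs, against 722 and 726 CPM in WT Gprin3 IPs. Shank2 had 70.8, 42.8 and 66.7 CPM in SOD1*G93A IPs, against 153.9 and 135.2 CPM in WT IPs. Shank3 had 25.6, 30.5 and 30.9 CPM in SOD1*G93A IPs, against 62.3 and 76.0 CPM in WT IPs. All 3 were lower in each SOD1*G93A library, with log2 fold changes of -1.18 ± 0.12 for Shank1, -1.26 ± 0.22 for Shank2 and -1.26 ± 0.20 for Shank3 (edgeR adjusted p = 4.52e-04, 0.00792 and 0.00426).

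Of the actin-linked genes, Mical3 had 23.3, 25.3 and 22.4 CPM in SOD1*G93A Gprin3 IPs, against 106.0 and 104.8 CPM in WT Gprin3 IPs. Sorbs2 had 94.4, 93.1 and 86.4 CPM in SOD1*G93A IPs, against 277.9 and 290.3 CPM in WT IPs. Both sets of libraries were tight, and the log2 fold changes were -2.16 ± 0.17 for Mical3 and -1.64 ± 0.13 for Sorbs2 (edgeR adjusted p = 1.15e-04 and 1.03e-04). Wipf3 had 138.9, 76.9 and 101.2 CPM in SOD1*G93A IPs, against 138.6 and 147.8 CPM in WT IPs, and the groups overlapped.

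Homer1, whose counts pool the long scaffold and the short activity-induced isoform, had 413.6, 384.0 and 401.6 CPM in SOD1*G93A Gprin3 IPs, against 384.7 and 406.9 CPM in WT Gprin3 IPs. Dlg4 had 210.4, 256.1 and 279.3 CPM in SOD1*G93A IPs, against 231.5 and 174.0 CPM in WT IPs. Both overlapped, with log2 fold changes of 0.01 ± 0.12 for Homer1 and 0.29 ± 0.16 for Dlg4 (edgeR adjusted p = 0.972 and 0.321). The PSD-95 and Homer messages thus did not pass the test in the IPs in which the Shank messages were lower.

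**Figure D2:**
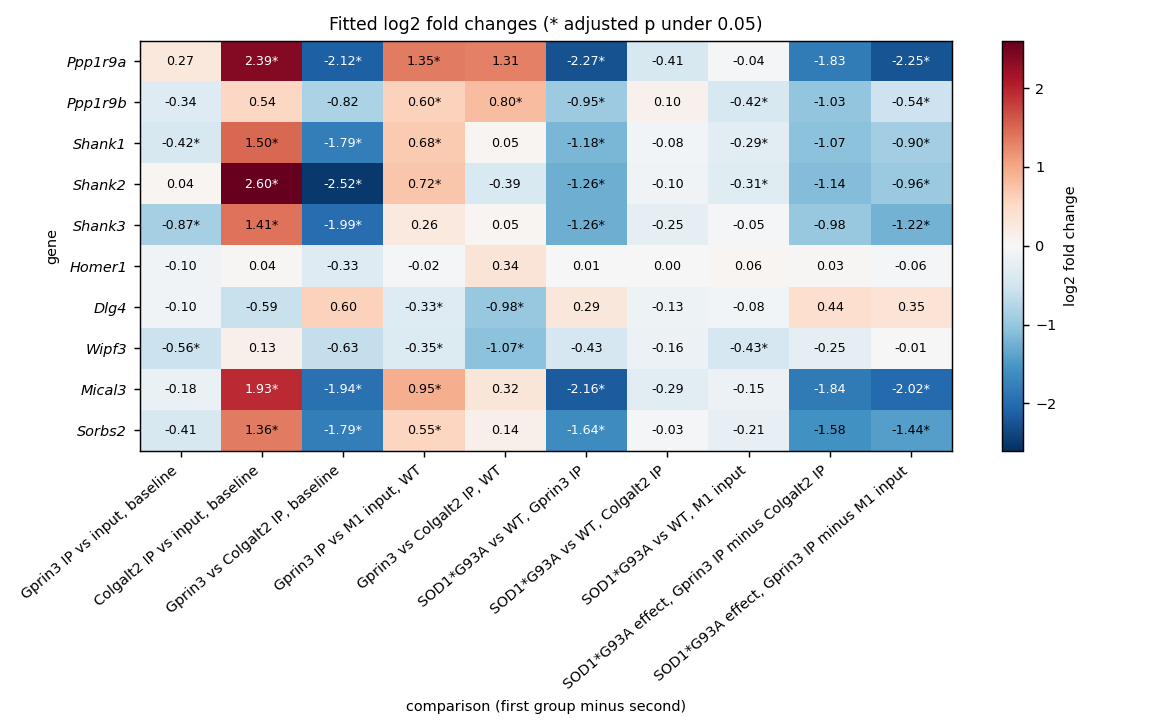
Each cell gives the fitted log2 fold change of a gene (rows) in a comparison (columns, first-named group minus second-named), coloured from blue (lower) to red (higher), with an asterisk where the adjusted p is under 0.05. The SOD1*G93A column of Gprin3 IPs holds 7 calls down to -2.27 for Ppp1r9a, and that of Colgalt2 IPs holds none.

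The WT Gprin3 IPs were not typical of all wild-type Gprin3 IPs. Baseline Gprin3 IPs held 378 and 637 CPM of Ppp1r9a, below the 1312 and 1576 CPM of WT Gprin3 IPs. Baseline Shank1 was at 416.9 and 367.7 CPM and baseline Sorbs2 at 112.3 and 176.7 CPM, between the SOD1*G93A and the WT values for both genes. With the baseline Gprin3 IPs in place of the WT IPs, an alternative chosen after seeing the data, no gene of the 10 was called against SOD1*G93A, and 65 genes of the table were. Ppp1r9a then had a log2 fold change of -0.81 (edgeR adjusted p = 0.0749), Mical3 one of -1.03 (0.128) and Shank1 one of -0.36 (0.311). Baseline and SOD1*G93A-cross libraries also differ in set, so genotype and set cannot be told apart in that alternative.

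Glial markers moved with these genes in SOD1*G93A against WT Gprin3 IPs. The 8 astrocyte markers summed to between 655.8 and 692.0 CPM in SOD1*G93A Gprin3 IPs, against 1501 to 2243 CPM in WT Gprin3 IPs, with 6 of 8 called lower. Baseline Gprin3 IPs, whose levels of Ppp1r9a and Shank1 were low as well, summed to between 752.8 and 772.9 CPM. The 8 oligodendrocyte markers summed to between 120.2 and 144.5 CPM in SOD1*G93A Gprin3 IPs, against 411.5 to 571.0 CPM in WT Gprin3 IPs, with 5 of 8 called lower. No marker of these 2 lists was at 0 in all libraries of a group. Their part in the result was not tested. Of 10 layer 5b markers, 1 was called higher and none lower. Other neuronal markers were mixed. Of them, 3 of 6 markers of layers 2 to 4 and 2 of 4 pan-excitatory markers were called lower. Their median log2 fold changes were -0.79 and -0.34. Of 10 interneuron markers, 1 was called higher and none lower, with a median of 0.125. No layer 6 marker was called.

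Transcript length moved with the fold change as well. Across the 13484 tested genes with an annotated length, the rank correlation of the log2 fold change with the longest transcript was -0.384, and genes share these libraries. All 10 genes described have a longest transcript of at least 4500 nt, from 4508 nt for Ppp1r9b to 9826 nt for Shank1. Among the 4208 tested genes at or above 4500 nt, a limit set with these lengths known, 13.6% were called lower. With the length trend taken out, 6 of the 7 genes kept their call, Ppp1r9a at a log2 fold change of -1.71 and Mical3 at -1.62. Shank2, at -0.73, did not (edgeR adjusted p = 0.127). Of the markers, 4 of 8 for astrocytes and 5 of 8 for oligodendrocytes were then called lower. So were 1 of 6 for layers 2 to 4 and 1 of 4 pan-excitatory markers.

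**Figure D3:**
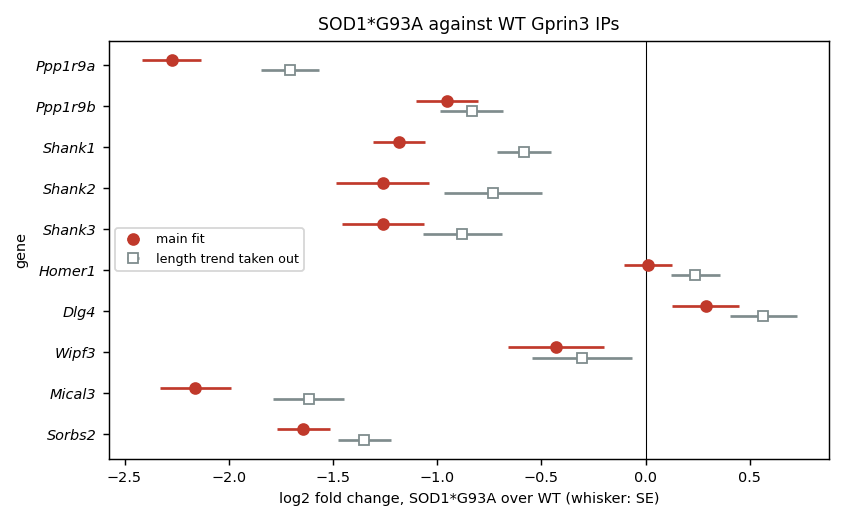
The horizontal axis gives the log2 fold change of SOD1*G93A over WT Gprin3 IPs for each gene (rows), with whiskers of 1 SE; red circles are the fit to the counts and grey squares the fit with the length trend taken out. Ppp1r9a stays the lowest in both, at -2.27 and -1.71, and Homer1 lies near 0 in the first at 0.01.

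The call rested on 2 WT libraries. Without WT Gprin3 IP 1, Shank2 and Ppp1r9b lost the call and 294 genes of the table had one. Without WT Gprin3 IP 2, Shank2 and Shank3 lost it and 142 genes had one, against 1118 with both. In the authors' deposited table for this comparison, 6 of the genes passed 0.05 and all 10 had the same sign as here. The exception was Ppp1r9a, listed there with a log2 fold change of -2.24 and an adjusted p of 1. The authors list the same adjusted p for it in the SOD1*G93A comparisons of Colgalt2 IPs and M1 inputs, and the cause was not tested.

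Other genes of the same machinery were read from 4 lists. Of 23 tested postsynaptic density scaffold genes other than the 10, 9 fell and none rose in SOD1*G93A Gprin3 IPs, with a median log2 fold change of -0.44. Dlgap2, a SAPAP linking PSD-95 to Shank, fell to 58.7 CPM in SOD1*G93A IPs against 129.5 CPM in WT IPs, and Lrrc7, the densin-180 gene, fell to 140.6 CPM against 295.7 CPM. Of 37 spine actin regulators, 7 fell and none rose, led by Dbn1, the gene of the spine actin-binding protein drebrin, at 16.6 CPM in SOD1*G93A IPs against 74.4 CPM in WT IPs. Actn1, an actin cross-linker, was at 17.1 CPM in SOD1*G93A IPs against 41.7 CPM in WT IPs.

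Among 19 binding partners and signalling genes, 7 fell and 1 rose. The gene that rose was Ppp1ca, a catalytic subunit of the phosphatase that neurabin and spinophilin bind, with a log2 fold change of 0.76 ± 0.16 (edgeR adjusted p = 0.0185). The ephrin receptor genes Ephb2 and Epha4 fell, by 1.33 and 1.07 on the log2 scale. None of the 5 tested inhibitory postsynaptic scaffold genes passed, and their median log2 fold change was -0.17. With the length trend out, 3 scaffold genes, 4 actin regulators and 2 partners were called lower, and 1 gene of each of these lists was called higher. These lists were chosen with earlier results of the data known.

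In Colgalt2 IPs of the same cross, no spine scaffold gene was called. The table held 0 of 14785 genes at the threshold by edgeR (0% called), 1073 at an unadjusted p under 0.05, and 72 by DESeq2. Ppp1r9a had 203, 1168, 182 and 196 CPM in SOD1*G93A Colgalt2 IPs, against 1474, 157.5 and 164.9 CPM in WT Colgalt2 IPs. A library of each genotype was high and the other 5 were low, so the groups overlapped. The log2 fold change was -0.41 ± 1.19.

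Mical3 followed the same libraries, with 56.8, 128.5, 45.9 and 43.8 CPM in SOD1*G93A Colgalt2 IPs, against 159.4, 53.1 and 43.7 CPM in WT Colgalt2 IPs. Sorbs2 had 222.4, 412.6, 167.8 and 203.5 CPM in SOD1*G93A IPs, against 418.9, 162.0 and 197.2 CPM in WT IPs. The high libraries were SOD1*G93A replicate 2 and WT replicate 1 for both genes. Precursor markers of oligodendrocytes summed to 42.4 CPM in the SOD1*G93A replicate and 38.1 CPM in the WT replicate. They summed to between 8.06 and 10.6 CPM in the other 5. Vascular markers were also highest in these 2 libraries, at 83.5 and 93.7 CPM, against 24.6 to 49.8 CPM in the other 5. So were astrocyte markers, at 1441 and 2261 CPM against 892.6 to 1182 CPM. Their part was not tested.

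The other genes varied between Colgalt2 IPs as well. Shank3 ran from 45.1 to 63.9 CPM in SOD1*G93A libraries and from 42.6 to 107.5 CPM in WT libraries. Its highest value was in WT replicate 1, as was that of Ppp1r9b, at 169.4 CPM. Shank1 ran from 606.4 to 766.7 CPM in SOD1*G93A libraries and from 551.6 to 915.7 CPM in WT libraries. Dlg4 ran from 235.6 to 526.2 CPM in SOD1*G93A libraries and from 363.2 to 436.9 CPM in WT libraries. Homer1 ran from 246.8 to 338.3 CPM in SOD1*G93A libraries and from 192.5 to 484.2 CPM in WT libraries. All 10 genes overlapped between genotypes. Without the 2 libraries no gene of the 10 was called either, and Ppp1r9a had a log2 fold change of 0.23. The deposited names mark read 1 for a library of each genotype and read 2 for the other 5, and within those 5 no gene of the 10 was called.

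The difference in the SOD1*G93A effect between the lines was tested as an interaction over 12 IPs. No spine scaffold gene passed, and 0.0775% of genes did. The differences, Gprin3 minus Colgalt2, were -1.07 ± 0.24 for Shank1 (edgeR adjusted p = 0.106), -1.03 ± 0.27 for Ppp1r9b (0.17) and -1.83 ± 1.5 for Ppp1r9a (0.781). Without the 2 libraries that stood apart, 7 genes of the 10 and 80 of the table were called, Ppp1r9a at -2.49 and Mical3 at -2.12. Those libraries were chosen with their Ppp1r9a and Mical3 values known, so that count is not independent of the outcome. Leaving out WT Colgalt2 IP 1 alone gave 6 calls among the 10 and 146 in the table, against 12 in the table with all libraries.

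In M1 inputs, SOD1*G93A differences were small. Ppp1r9b, Shank1, Shank2 and Wipf3 fell, 4 of the 10, where 3.33% of 14324 genes were called, 2.13% higher and 1.2% lower. Ppp1r9b had a lowest, median and highest level of 103.0, 116.9 and 118.6 CPM in SOD1*G93A inputs, against 145.5, 150.9 and 187.9 CPM over the WT inputs. The ranges did not meet, as for 3.61% of all genes, and the log2 fold change was -0.42 ± 0.07 (edgeR adjusted p = 0.00197). Wipf3 ran from 123.5 to 168.5 CPM in SOD1*G93A inputs and from 176.7 to 220.8 CPM in WT inputs, again apart, at -0.43 ± 0.07 (edgeR adjusted p = 0.00271).

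Shank1 and Shank2 in inputs lay nearer the threshold. Shank1 ran from 310.1 to 480.6 CPM in SOD1*G93A inputs and from 471.5 to 537.4 CPM in WT inputs, at -0.29 ± 0.08 (edgeR adjusted p = 0.0345). Shank2 was at -0.31 ± 0.09 (edgeR adjusted p = 0.0475), and both calls were lost in 8 of the 11 fits that left out a library, all but those without WT input 1, SOD1*G93A input 2 or SOD1*G93A input 5. Without SOD1*G93A input 5 the call of Shank2 alone was lost, and Sorbs2, at -0.25, gained one (edgeR adjusted p = 0.0235). Ppp1r9a, at a log2 fold change of -0.04, and Mical3, at -0.15, did not pass in inputs. In the authors' deposited table none of the 10 was called for this comparison.

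Lists around the genes were mixed in inputs. Among scaffold genes 1 of 23 rose and 2 fell, with Dlg1 (SAP97) at 328.7 CPM in SOD1*G93A inputs against 287.9 CPM in WT inputs. Baiap2, the IRSp53 gene, fell by 0.29 on the log2 scale. Among actin regulators 2 of 37 rose and 2 fell, among them Pak3, a kinase gene, up by 0.25, and Synpo, which encodes synaptopodin of the spine apparatus, which fell by 0.30. Camk2a fell by 0.25 and gephyrin (Gphn), the inhibitory scaffold, rose by 0.33.

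Whether the SOD1*G93A effect differed between Gprin3 IPs and M1 inputs was tested over 16 libraries. For 7 of the 10 genes the effect was lower in IPs, where 18.2% of 15495 genes were called, 6.78% higher and 11.4% lower. The differences in log2 fold change, IP minus input, were -2.25 ± 0.13 for Ppp1r9a, -2.02 ± 0.16 for Mical3 and -1.44 ± 0.11 for Sorbs2. They were -1.22 ± 0.16 for Shank3, -0.96 ± 0.22 for Shank2, -0.90 ± 0.15 for Shank1 and -0.54 ± 0.14 for Ppp1r9b. With the length trend out, Ppp1r9a, Mical3, Sorbs2 and Shank3 kept the call and Dlg4 was called higher, at 0.71 (edgeR adjusted p = 0.00194). In this contrast 8 of 8 astrocyte, 7 of 8 oligodendrocyte and 6 of 7 microglia markers were also called lower, and their part was not tested. The same 2 WT Gprin3 IPs enter this contrast and the comparison within Gprin3 IPs.

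In WT animals of the cross, 6 of the 10 genes were higher in Gprin3 IPs than in M1 inputs and 2 were lower, where 40.4% of 14930 genes were called, 20.6% higher and 19.8% lower. Ppp1r9a was at 1576 and 1312 CPM in WT Gprin3 IPs, against 570.1 to 693.7 CPM in WT M1 inputs, a log2 fold change of 1.35 ± 0.08. Mical3 rose by 0.95, Shank2 by 0.72, Shank1 by 0.68, Ppp1r9b by 0.60 and Sorbs2 by 0.55. Dlg4 fell by 0.33 and Wipf3 by 0.35 on the log2 scale. Of the other scaffold genes, 14 of 23 rose and 1 fell. Tanc1 was at 51.1 CPM in IPs against 20.5 CPM in inputs, and Homer2 at 106.0 CPM in IPs against 218.2 CPM in inputs. Glial markers went the other way from the 6 genes. Of them, 5 of 8 astrocyte, 6 of 8 oligodendrocyte and 5 of 7 microglia markers were called lower and none higher. Their part was not tested.

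At baseline, no gene of the 10 was called higher in Gprin3 IPs than in inputs and 3 were called lower. Of 14527 genes, 29.2% were called, 13.9% higher and 15.3% lower, so 3 of the 10 is near the share of the table. Shank3 had 29.4 and 39.2 CPM in Gprin3 IPs, against 72.8, 85.4 and 60.8 CPM in inputs. Its IPs were low in both libraries, with a log2 fold change of -0.87 ± 0.20 (edgeR adjusted p = 0.0055). Wipf3 fell by 0.56 and Shank1 by 0.42. Ppp1r9a had 378 and 637 CPM in IPs, on either side of the inputs at 473 to 509 CPM. With the length trend out, Shank3 and Wipf3 kept their calls and Shank1 lost its call, at -0.102 (edgeR adjusted p = 0.561). Ppp1r9a was then called higher, at 0.595 (edgeR adjusted p = 0.0325). Without baseline Gprin3 input 3, only 1 of the 10 was called in the main fit. Of 24 other scaffold genes, 2 were called higher and 7 lower, unlike in the WT Gprin3 IPs of the cross. Their median log2 fold change was -0.22. With the length trend out, 8 of these 24 were called higher and 1 lower.

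Baseline Colgalt2 IPs held the highest group mean of 7 genes: Ppp1r9a, Ppp1r9b, Shank1, Shank2, Shank3, Mical3 and Sorbs2. Against their inputs 6 of the 10 were called higher, where 2.65% of 14240 genes were called, 1.75% higher and 0.906% lower. Shank2 had 314.7 and 698.3 CPM in Colgalt2 IPs, against 107.9 and 100.3 CPM in inputs, a log2 fold change of 2.6 ± 0.43 (edgeR adjusted p = 0.0401). Ppp1r9a had 1846 and 2495 CPM in IPs, against 541 and 470 CPM in inputs, at 2.39 ± 0.30 (edgeR adjusted p = 0.0389). The IPs of both genes stood clear of their inputs but differed from each other. Mical3, at 1.93, Shank1, at 1.5, Shank3, at 1.41, and Sorbs2, at 1.36, were the other calls.

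These calls were close to the threshold. With either baseline Colgalt2 input left out no gene of the 10 was called, and with the length trend out no gene of the table was, the adjusted p of the 6 genes then lying between 0.0545 and 0.0821. Their log2 fold changes were then 2.23 for Shank2, 1.97 for Ppp1r9a, 1.52 for Mical3, 1.14 for Sorbs2, 1.1 for Shank3 and 1.0 for Shank1. In the authors' deposited table for this comparison 7 of the 10 genes passed 0.05, these 6 and Dlg4, which was lower, with the smallest adjusted p, 5.95e-19, for Ppp1r9a. The rank correlation of log2 fold change with transcript length was 0.272 here. Dbn1 again was among the actin regulators called, at 164.9 CPM in Colgalt2 IPs against 52.8 CPM in inputs. Of 24 other scaffold genes 5 rose and none fell. Iqsec2, an exchange factor of the postsynaptic density, was among those that rose, at 211.9 CPM in IPs against 88.4 CPM in inputs. Of the markers, 3 of 8 for oligodendrocytes were called lower and none higher. No astrocyte marker was called, and 2 of 8 vascular markers were called higher. Their part was not tested.

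Set directly against baseline Colgalt2 IPs, baseline Gprin3 IPs were lower for 6 of the 10 genes, where 6.67% of 13604 genes were called, 2.22% higher and 4.45% lower. Shank2 had 82.0 and 99.0 CPM in Gprin3 IPs, against 314.7 and 698.3 CPM in Colgalt2 IPs, a log2 fold change of -2.52 ± 0.36. Ppp1r9a was at -2.12 ± 0.31, Shank3 at -1.99 ± 0.30 and Mical3 at -1.94 ± 0.32. Shank1 and Sorbs2 were both at -1.79. No gene of the 10 overlapped between the 2 IPs of each line, which held for 53.3% of all tested genes. With the length trend out Shank2, Shank3 and Sorbs2 kept the call, and without baseline Gprin3 IP 1 only 1 of the 10 did.

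Astrocyte markers again moved with the genes, summing to between 752.8 and 772.9 CPM in baseline Gprin3 IPs and between 1618 and 2441 CPM in baseline Colgalt2 IPs, with 4 of 8 called lower. The 8 vascular markers summed to between 5.14 and 6.14 CPM in baseline Gprin3 IPs and between 42.1 and 112.0 CPM in baseline Colgalt2 IPs, with 6 of 8 called lower. Their part in the result was not tested. Ppp1ca and Ppp1cb, phosphatase catalytic subunits, were higher in Gprin3 IPs, at 215.9 against 103.7 CPM and 546.6 against 278.6 CPM. Sipa1l1, a Rap regulator of the postsynaptic density, was at 325.0 CPM in Gprin3 IPs against 1322 CPM in Colgalt2 IPs.

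Among WT IPs of the crosses, 3 other genes separated the lines. Against WT Colgalt2 IPs, WT Gprin3 IPs were higher for Ppp1r9b, by 0.80 ± 0.23, and lower for Dlg4, by a log2 fold change of -0.98 ± 0.20, and Wipf3, at -1.07 ± 0.21, where 13% of 14813 genes were called, 6.9% higher and 6.1% lower. Dlg4 had 231.5 and 174.0 CPM in WT Gprin3 IPs, against 363.2, 436.9 and 386.9 CPM in WT Colgalt2 IPs. Wipf3 had 138.6 and 147.8 CPM in WT Gprin3 IPs, against 240.6, 314.5 and 329.7 CPM in WT Colgalt2 IPs. Both genes were lower in each WT Gprin3 IP than in any WT Colgalt2 IP, and libraries did not overlap for 47.7% of genes. Baseline IPs went the other way for Dlg4, at 302.5 and 255.2 CPM for Gprin3 against 207.1 and 164.6 CPM for Colgalt2. They also did for Ppp1r9b, at a log2 fold change of -0.82, while Wipf3 kept its direction, at -0.63. At baseline none of these genes passed (edgeR adjusted p = 0.177, 0.0826 and 0.247). None of the 3 calls held when either WT Gprin3 IP or WT Colgalt2 IP 2 was left out.

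WT Colgalt2 IP 1 decided other values in that comparison. Ppp1r9a was at 1.31 ± 1.24 with it and at 3.08 without it (edgeR adjusted p = 1.43e-06). Without it 6 of the 10 genes and 2863 of the table were called, against 3 and 1926 with it. The tissue labels differ, M1 for the Gprin3 and whole cortex for the Colgalt2 IPs, so line and tissue cannot be told apart here. In the same comparison 8 of 10 interneuron markers were called higher, with a median log2 fold change of 2.12, and 5 of 8 vascular markers lower, with a median of -2.64. Their part was not tested. Arc, an immediate early gene of spines, averaged 95.1 CPM in WT Gprin3 IPs against 309.2 CPM in WT Colgalt2 IPs.

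The 10 group means were then ranked. SOD1*G93A Gprin3 IPs held the lowest mean of 8 genes, Ppp1r9a, Ppp1r9b, Shank1, Shank2, Shank3, Wipf3, Mical3 and Sorbs2. WT Gprin3 IPs came after baseline Colgalt2 IPs for Ppp1r9a, Ppp1r9b, Shank1, Mical3 and Sorbs2. Ppp1r9a averaged 300.4 ± 53.9 CPM in SOD1*G93A Gprin3 IPs (SD, n = 3), 437.3 ± 486.9 CPM in SOD1*G93A Colgalt2 IPs (n = 4) and 583.8 ± 13 CPM in SOD1*G93A M1 inputs (n = 6). The wild-type means were 1444 ± 187 CPM in WT Gprin3 IPs (n = 2), 598.6 ± 757.7 CPM in WT Colgalt2 IPs (n = 3) and 617.6 ± 48.6 CPM in WT M1 inputs (n = 5). Baseline IPs averaged 507.8 ± 183.3 CPM for Gprin3 and 2171 ± 459 CPM for Colgalt2 (n = 2 each). Neighbours in the middle of this order lie within each other's spread.

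Dlg4 ran in another order. Its mean was highest in WT Colgalt2 IPs, at 395.6 ± 37.6 CPM (SD, n = 3), and in SOD1*G93A Colgalt2 IPs, at 362.8 ± 130.8 CPM (n = 4). It was lowest in baseline Colgalt2 IPs, at 185.9 ± 30.1 CPM, and WT Gprin3 IPs, at 202.8 ± 40.6 CPM (n = 2 each). Homer1 was highest in M1 inputs, at 442.9 ± 25.8 CPM in SOD1*G93A (n = 6) and 438.5 ± 49.1 CPM in WT (n = 5), and lowest in baseline Gprin3 IPs, at 284.7 ± 41.2 CPM (n = 2).

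**Figure D4:**
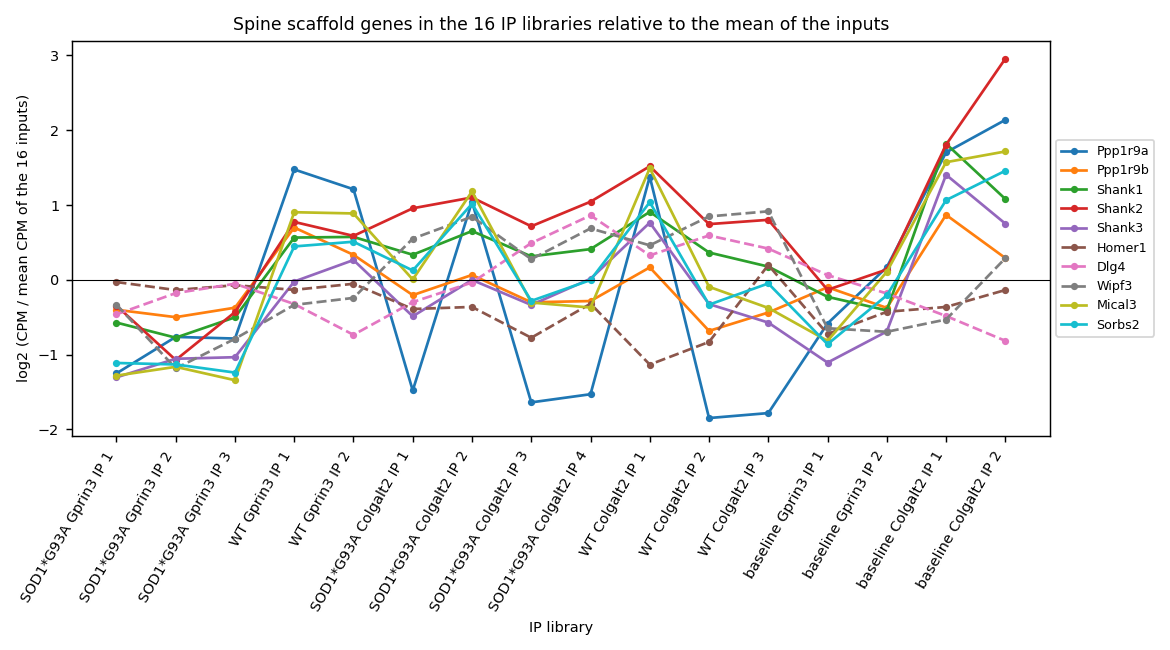
The vertical axis gives the log2 ratio of the CPM in each of the 16 IP libraries (horizontal axis) to the mean CPM of the 16 inputs, with a line per gene, dashed for Homer1, Dlg4 and Wipf3. The lines of Ppp1r9a, Mical3 and Sorbs2 lie above 0 in WT Gprin3, baseline Colgalt2, SOD1*G93A Colgalt2 IP 2 and WT Colgalt2 IP 1, where Ppp1r9a ran from 1168 to 2495 CPM, while Shank3 lies near 0 in SOD1*G93A Colgalt2 IP 2 and WT Gprin3 IP 1.

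The 7 genes called lower in SOD1*G93A Gprin3 IPs varied together across the 16 IPs. The libraries of that comparison are among the 16, so part of this likeness follows from how the 7 were picked. On the log2(CPM + 1) scale, Mical3 and Sorbs2 had Pearson's r of 0.975, Shank1 and Shank3 0.958, Shank2 and Sorbs2 0.905, and Ppp1r9a and Ppp1r9b 0.85. The lowest r among the 7 was 0.533, between Ppp1r9a and Shank2. Homer1 had r of 0.007 with Ppp1r9a, and Dlg4 had r of -0.627 with it. These values describe libraries that share groups, depth and amplification. Across the 16 inputs Ppp1r9a and Mical3 had r of 0.052, whereas Ppp1r9b and Shank1 had r of 0.935. Ppp1r9a there had r of -0.485 with Ppp1r9b and -0.511 with Shank1. Dlg4, outside the 7, had r of 0.801 with Ppp1r9b and 0.82 with Shank1, so for these pairs the grouping did not hold in inputs.

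Prex1 had the group means most like the average of the 10 genes, with Pearson's r of 0.979 over 10 group means among 10262 genes. Among others near the top were Csmd1 at 0.965, Prrc2b at 0.962 and Plxna2, a semaphorin receptor gene, at 0.962. Their longest transcripts ran from 6533 nt for Prex1 to 14182 nt for Csmd1. Of the 10 genes themselves, Sorbs2 was nearest their average at 0.987, and Homer1 at -0.017 and Dlg4 at -0.148 were farthest.

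On GRCm38 the genes are spread over 6 chromosomes in the annotation. Ppp1r9a lies at chr6:4902917-5165661 on the plus strand and Mical3 at chr6:120931707-121130999 on the minus strand. Shank1 lies at chr7:44310253-44360572, Shank2 at chr7:144001928-144424494 and Shank3 at chr15:89499623-89560261. Exons of Shank1, Shank3, Wipf3, Mical3 and Sorbs2 overlap genes on the other strand. Whether counting used strand is not given in the sources used here, so reads of such partners cannot be told apart. The largest partner level was 114.4 CPM for Scrn1 beside Wipf3, whose own highest level was 329.7 CPM.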

How the data were processed

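Per the labels' protocols, 15 ng RNA was amplified (NuGEN Ovation V2) before a TruSeq v2 library preparation. The submitters' processing notes name the mm10 genome, Subread, featureCounts and DESeq2 1.26.0; for the first 2 tools the version is not given in the sources used here. The authors deposited gene counts per library and tables of log2 fold changes with adjusted p-values for 6 comparisons. The 36 columns of values per library in the authors' tables were not used. Rows with no symbol, at most 0.0201% of a library's counts, were left out. Amplification from little RNA can weigh transcripts by length and integrity, and no molecular identifiers are recorded.

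The members and lists were chosen with earlier results of these data known. All 10 members were named in each comparison. From the 4 related lists up to 2 genes a direction were eligible, those with the largest fold change past the threshold and a mean of 5 CPM or more in the higher group, and not all are printed. The 5 genes most like the members' mean were eligible, and some results are not reported here.

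Counts went into edgeR 4.0.16, run with R 4.3.3 and limma 3.58.1: filterByExpr, TMM factors, robust quasi-likelihood F test, Benjamini-Hochberg adjustment over all genes, threshold 0.05, each comparison fitted on its own groups. The code was tested on simulated data. Alternatives were RLE factors, no low-count filter, the Wald test of DESeq2 1.42.0, a replicate block, a lowess trend (span 0.3) on transcript length taken out as an offset, each library left out, the sequenced read, and those chosen later. Annotation was GENCODE (GRCm38) and RefSeq (GRCm38.p6). Replicates within groups differed beyond counting noise, with a chi-square per degree of freedom of at least 6.756.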

Additional observations from a re-analysis of the deposited data

Results flagged for a closer look

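In 30 groups of 4 to 6 libraries tested for a library far from the others, 5 were found, and chance alone flags about 1 in 20. Ppp1r9a at 1168 CPM and Mical3 at 128.5 CPM were both far above the other SOD1*G93A Colgalt2 IPs in replicate 2. Ppp1r9b at 187.9 CPM and Homer1 at 525.4 CPM were both high in WT M1 input replicate 3. Dlg4 at 230.2 CPM was low in SOD1*G93A M1 input replicate 1.

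The SOD1*G93A effect differed between Gprin3 IPs and M1 inputs by the interaction test (edgeR, adjusted over all genes) for 7 genes. The differences in log2 fold change, IP minus input, were -2.25 for Ppp1r9a, -2.02 for Mical3, -1.44 for Sorbs2, -1.22 for Shank3, -0.96 for Shank2, -0.90 for Shank1 and -0.54 for Ppp1r9b. The calls of Shank2, Shank1 and Ppp1r9b were lost with the length trend out.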

How the results depend on the processing

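Counts below are genes called in the whole table or among the 10 spine scaffold genes. For baseline Colgalt2 IP against input, 378 genes were called, against 1742 with no low-count filter, 1877 by DESeq2, 1506 with a replicate block and 0 with the length trend out, where 0 of the 10 were called. For baseline Gprin3 against Colgalt2 IPs, 907 became 1557 with no filter, 1549 by DESeq2 and 266 with the length trend out, where 3 of the 10 were called. For SOD1*G93A against WT Gprin3 IPs, 1118 became 1720 with no filter, 2012 by DESeq2, 1748 with the block, 485 with the length trend out, and 65, with 0 of the 10, against the baseline IPs. DESeq2 called 72 genes in place of 0 for SOD1*G93A in Colgalt2 IPs and 909 in place of 477 in M1 inputs. For the difference between the lines, 12 became 1 with RLE, the block or the length trend out, 51 with no filter and 152 by DESeq2, the last 2 with 1 of the 10 called, and 80 with 7 of the 10 without the 2 libraries that stood apart. For the difference from M1 inputs, 2819 became 1827 with the length trend out.

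Leaving out each library in turn, genes called in the table ran from 2285 to 5932 for baseline Gprin3 IP against input (1 to 5 of the 10), 1 to 7202 for baseline Colgalt2 IP against input (0 to 9 of the 10), and 135 to 1711 for the baseline lines (1 to 7 of the 10). They ran from 353 to 2863 for the WT lines (0 to 6 of the 10), 5093 to 5938 for WT Gprin3 IP against M1 input (7 to 8 of the 10), and 142 to 1664 for SOD1*G93A in Gprin3 IPs (5 to 8 of the 10). They ran from 0 to 6 for SOD1*G93A in Colgalt2 IPs (0 of the 10), 180 to 470 in M1 inputs (2 to 4 of the 10), 1 to 146 for the difference between the lines (0 to 6 of the 10), and 1405 to 3450 for the difference from M1 inputs (7 to 8 of the 10). The log2 fold change of Wipf3 in baseline Colgalt2 IPs over input, 0.13, ran from -0.47 without baseline Colgalt2 IP 2 (edgeR adjusted p = 0.0338) to 0.49. The cause of these moves was not tested.

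Over all alternatives, 1165 fold changes of the 10 genes kept their side of the threshold with no marked move. A further 40 passed it newly, 82 no longer passed, 22 without a call moved and 1 reversed. The 1165 include uncalled genes whose sign changed. Ppp1r9a in SOD1*G93A against WT Colgalt2 IPs, at -0.41, was at 0.23 without the 2 libraries that stood apart. Nothing in the labels says that a shared replicate number pairs libraries. In the comparisons with 3 or more shared numbers, same-numbered deviations had r of -0.168 to -0.115 for SOD1*G93A against WT Colgalt2 IPs and -0.099 to 0.141 for M1 inputs. With 2 shared numbers, r was 0.166 to 0.18 for baseline Gprin3 IP against input and 0.115 for baseline Gprin3 against Colgalt2 IPs, and between -0.141 and 0.1 in the others, too few to decide pairing. With the replicate block, 3 of the 10 were called in M1 inputs in place of 4.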
